A study of Saccharomyces cerevisiae with 18 samples.

Results

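Dib1 is a small protein of the U5 snRNP and of the U4/U6.U5 tri-snRNP, the particle that joins the spliceosome once an intron has been bound by U1 and U2. In the strain described here the DIB1 gene (YPR082C) was under the GAL1 promoter, so that the gene was read in galactose and shut off in glucose. The comparison is of 3 libraries from cells kept 8 h in YPD, a rich medium with glucose, against 3 libraries from cells kept 6 h in YPGal, the same medium with galactose. These 6 libraries, of 18 in the series, were chosen by their labels alone. All are labelled as one budding yeast strain of the BY4742 background, Mat alpha with his3Δ1, leu2Δ0, met15Δ0 and ura3Δ0, with LYS2 intact. The galactose libraries carry the same PGAL1-YPR082C allele as the glucose libraries. The medium, the loss of DIB1 and the time in the medium (8 h against 6 h) changed together. Effects of glucose, of DIB1 loss and of time cannot be told apart within this comparison. The other strain of the series keeps DIB1 under its own promoter but loses SNU114, another splicing gene, with the same shift. Polyadenylated RNA was sequenced. Nothing in the labels says whether the replicates were separate cultures, so p-values measure the spread between these samples, which may be technical.

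The libraries held 17142711 to 58615022 reads in genes, the deepest being 8 h replicate 1. Summed by list, the mating-type markers went against the label Mat alpha in both groups. The 8 genes listed for a cells summed to 51083 to 58144 normalised counts in galactose and 61042 to 63881 at 8 h. The 4 genes listed for alpha cells summed to 1976 to 2339 and 2696 to 3156. None of the 12 was at 0. STE2, the receptor of a cells, had 12594 to 17346 normalised counts over the 6 libraries, and MFA2, an a-factor gene, had 15389 to 24524. MF(ALPHA)1, the main alpha-factor gene, had 9.6 to 62.9. SAG1, on the alpha-cell list, was read at 1632 to 3046 here and at 7852 to 13987 in the strain that loses SNU114. AXL1, on the a-cell list, had 2633 to 3717 here and 2429 to 2990 in that strain, so it does not set the strains apart. The tables of the strains were normalised separately. LEU2, MET17 and URA3 were at 0 in all 6 libraries, the genes deleted or disrupted by the labelled alleles (met15 is MET17), and LYS2 was read at 2973 to 3560.4. HIS3 was read at 1191 to 1843, the his3Δ1 allele being a partial deletion.

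A yeast intron carries 3 short sequences that the spliceosome reads. The 5′ splice site is paired first by U1 and then by U6, the branch sequence TACTAAC is paired by U2 and supplies the adenosine that attacks the 5′ splice site, and the 3′ splice site ends the intron. The tri-snRNP brings U6 and U5 to the 5′ splice site. Yeast has few introns, and many of them lie in the highly expressed genes for ribosomal proteins, so a large part of all splicing serves ribosome production. The introns below are shown because they span the range of the result. The first 4 are among the 8 with the largest gain of intron reads at 8 h, and the last 3 showed no detectable gain. TEF4 and ACT1 have long introns, of which the last 120 bases are shown. Capitals mark the first 6 bases where shown, an exact TACTAAC and the last 3 bases, in R64 (RefSeq), the assembly of sacCer3.
TEF4: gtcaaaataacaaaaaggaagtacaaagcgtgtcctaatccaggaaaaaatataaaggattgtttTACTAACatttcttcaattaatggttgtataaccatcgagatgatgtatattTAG
RPS4B: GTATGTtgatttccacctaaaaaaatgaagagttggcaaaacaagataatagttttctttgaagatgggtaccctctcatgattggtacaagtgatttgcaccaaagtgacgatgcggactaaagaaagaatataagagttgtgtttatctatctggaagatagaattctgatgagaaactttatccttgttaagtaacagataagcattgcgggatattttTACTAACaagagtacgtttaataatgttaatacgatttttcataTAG
ACT1: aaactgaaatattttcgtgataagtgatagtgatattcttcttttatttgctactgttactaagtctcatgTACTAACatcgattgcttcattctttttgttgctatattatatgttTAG
NMD2: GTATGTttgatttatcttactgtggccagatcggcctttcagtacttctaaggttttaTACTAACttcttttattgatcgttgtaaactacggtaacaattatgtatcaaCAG
YJR112W-A: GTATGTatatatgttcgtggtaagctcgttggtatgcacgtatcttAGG
REC107: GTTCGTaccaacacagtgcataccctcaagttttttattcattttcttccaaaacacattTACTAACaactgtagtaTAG
HAC1: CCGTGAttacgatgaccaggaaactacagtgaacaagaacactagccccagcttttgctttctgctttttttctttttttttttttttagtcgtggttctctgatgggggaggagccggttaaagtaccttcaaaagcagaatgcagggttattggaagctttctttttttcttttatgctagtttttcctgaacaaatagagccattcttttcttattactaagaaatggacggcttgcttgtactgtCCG
The introns of TEF4 (chrXI:283096-283421, plus strand, shown from 283302), RPS4B (chrVIII:505248-505516, minus), ACT1 (chrVI:54378-54686, minus, shown up to 54497) and NMD2 (chrVIII:255638-255750, minus) all start GTATGT and hold TACTAAC. YJR112W-A (chrX:637810-637858, plus) has a gap of 49 bases between its annotated exons, with no TACTAAC. REC107 (chrX:469184-469263, minus) has TACTAAC but starts GTTCGT. HAC1 (chrVI:75840-76091, plus) has an intron that starts CCGTGA, ends CCG and holds no exact TACTAAC, and that is cut out by the endonuclease Ire1 and closed by tRNA ligase, not by the spliceosome.

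The targeted gene was checked first. DIB1 had 121968, 127214 and 117804 normalised counts in the 3 galactose libraries and 265, 246 and 283 in the 3 libraries of 8 h, a change of -8.85 ± 0.10 (log2, SE; adjusted p = 1.2e-11). GAL1, the galactokinase gene whose promoter drives DIB1 here, went from 217134, 280094 and 302254 to 240.1, 255 and 268, a change of -10.01 ± 0.18 (log2, SE; adjusted p = 6.1e-10). Both genes were far lower in every 8 h library than in any galactose library. The strain that keeps DIB1 under its own promoter had DIB1 means of 1281 in galactose and 1065 at 8 h. Its table was normalised separately. The galactose libraries here thus held far more DIB1 RNA than that strain, so -8.85 is no change from the level under the own promoter. The difference in DIB1 RNA between 8 h and 4 h of glucose did not pass the test (adjusted p = 0.67 by limma). The level of Dib1 protein was not measured.

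Intron reads took up a larger share of the reads at 8 h in every library. Summed over 284 intron hosts, intron reads made up 0.517%, 0.524% and 0.543% of gene reads in galactose and 2.62%, 2.53% and 2.57% at 8 h, 4.87 times as much. The groups lay far apart, and the exact two-sided permutation test of 3 against 3 gave p = 0.1, the smallest it allows. With the introns of ribosomal protein genes left out the share was 4.07 times as large at 8 h.

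For single introns, the measure used below is the number of intron reads per 100 reads of the same gene, called the intron percent, which divides out a change in the RNA of the gene as a whole. Whether gene reads include intron reads, and how reads across an exon border were assigned, is not given in the sources used here, so the intron percent is no share of unspliced molecules. In 7 hosts a galactose or 8 h library had more intron than gene reads. Its log2 value was tested in 250 hosts with a mean of at least 20 gene reads and 5 intron reads, with limma and Benjamini-Hochberg adjustment at 0.05. The ratio rose in 230 of the 250 introns (92%) and fell in 0 (0%; edgeR also called 0 falls, and 0 were below an unadjusted 0.05). The median change was 2.58 on the log2 scale, 177 introns gained more than 2 and 25 more than 4. All 3 libraries of 8 h lay above all 3 of galactose in 233 introns (93.2%). The other 34 hosts had too few reads for a ratio. In the authors' deposited table for introns, scaled on intron reads alone, 73 introns rose and 87 fell between these groups.

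TEF4, a gene for translation elongation factor 1B gamma, had the largest gain. Its intron percent was 0.335, 0.342 and 0.169 in galactose and 13.6, 13.6 and 10.7 at 8 h, a change in ratio of 5.53 ± 0.32 (log2, SE; adjusted p = 6.5e-08). The lowest 8 h library was far above the highest galactose library. The TEF4 intron also holds the small RNA gene YNCK0009W over 95 bases on the same strand, and reads of that RNA cannot be told apart from reads of the intron.

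ACT1, the single actin gene, had intron percents of 0.846, 0.708 and 0.82 in galactose and 19.7, 18.5 and 22 at 8 h, a change of 4.66 ± 0.24 (log2, SE; adjusted p = 3.7e-08). SAC6, the actin-bundling protein fimbrin, went from 0.162, 0.172 and 0.168 to 4.89, 4.89 and 4.43, a change of 4.78 ± 0.35 (log2, SE; adjusted p = 2.7e-07). Both had under 1 intron read per 100 gene reads in every galactose library and over 4 in every 8 h library. Their gene-level RNA did not pass the test in either direction, at -0.22 for ACT1 and 0.34 for SAC6. Per base of sequence, the ACT1 intron was read at 2.89% of the density of its exons in galactose and 73.3% at 8 h. NMD2, which encodes the Upf2 protein of nonsense-mediated decay, had intron percents of 0.145, 0.27 and 0.133 and 4.9, 5.1 and 6.09, a change of 4.85 ± 0.39 (log2, SE; adjusted p = 5e-07). Here the gene itself rose as well, by 0.95 on the log2 scale.

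**Figure D1:**
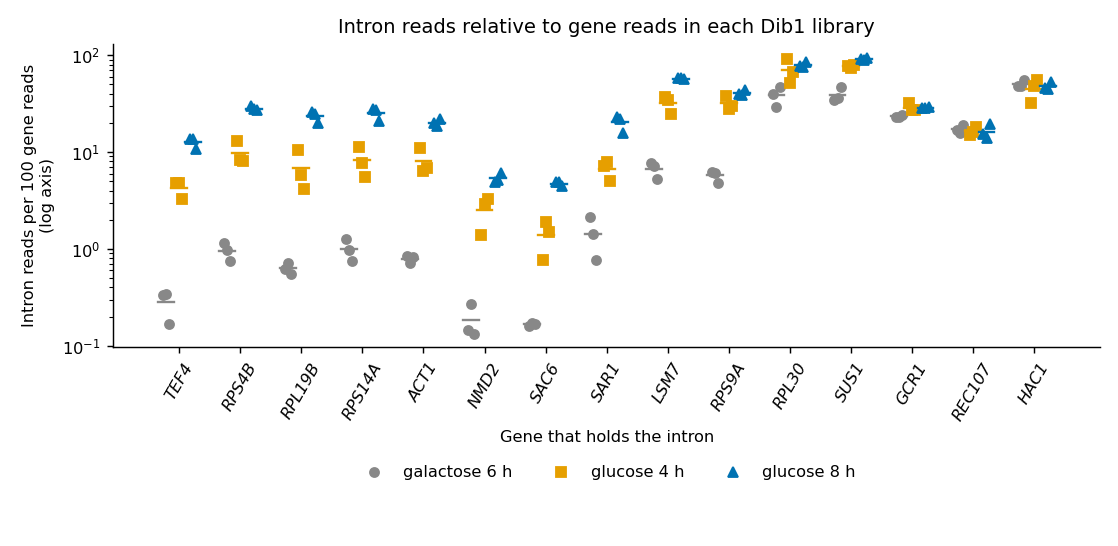
Intron reads per 100 gene reads (log axis) for 15 introns in each of the 3 libraries of galactose 6 h (grey circles), glucose 4 h (orange squares) and glucose 8 h (blue triangles), with short bars at the means. The 8 h libraries of TEF4 lie between 10.7 and 13.6, all above the galactose libraries, while those of REC107 and HAC1 overlap with galactose.

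All 89 introns of ribosomal protein genes gained. Their median intron percent was 5.82 in galactose and 51 at 8 h, with a median change in ratio of 3.04 and a range of 1.06 to 5.22. The 52 introns of the 60S subunit and the 36 of the 40S subunit had medians of 3.09 and 2.95. Of the 161 introns of other genes, 141 rose, with medians of 4.72 and 24.6 intron reads per 100 gene reads and a median change of 2.40. The introns of ribosomal protein genes are longer, at a median of 408 bases against 100.5, so intron percents are compared within an intron and not between the classes. The part of length in the difference between classes was not tested.

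RPL19B, for a 60S protein, had the second largest gain, from 0.621, 0.722 and 0.545 to 25.7, 24.7 and 19.9, a change of 5.22 ± 0.32 (log2, SE; adjusted p = 8.7e-08). RPS4B, for a 40S protein, went from 1.14, 0.964 and 0.749 to 29.5, 27.7 and 27, a change of 4.90 ± 0.24 (log2, SE; adjusted p = 3.4e-08). RPL21A and RPS14A followed, with changes of 4.74 and 4.68. Each of these 4 introns was under 2 intron reads per 100 gene reads in every galactose library and above 19 in every 8 h library.

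Most ribosomal proteins have a pair of genes in yeast, and in 41 pairs both copies have a tested intron. The change in ratio differed between the copies by a median of 0.39, and by more than 1 in 8 pairs. The widest gap was in RPS14, where the A copy went from 1.0 ± 0.262 to 25.4 ± 3.72 intron reads per 100 gene reads (mean ± SD, n = 3) and the B copy from 18.6 ± 1.31 to 51.2 ± 2.37. RPL22A went from 3.57 ± 0.589 to 27.7 ± 0.495 and RPL22B from 24.1 ± 3.18 to 53.9 ± 4.67. The changes were 4.13 for RPL7A and 1.48 for RPL7B, and 2.83 for RPL19A and 5.22 for RPL19B, gaps wider than that of RPL22. RPS14B and RPL22B are copies whose splicing is known to be held back by their own protein. The difference between copies was not tested, and reads that match both copies of a pair could be split or dropped by the counting, so the gene reads of such pairs are uncertain.

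Of 9 introns known for regulated or inefficient splicing, 9 rose, with a median of 1.23 beside 2.58 over all 250. Their median intron percent in galactose was 18.6, against 5.1 over all 250. The part of this higher start in the smaller median gain was not tested. RPL30, whose protein binds its own pre-mRNA, went from 39.3, 29.5 and 46.6 to 76.5, 74.7 and 85.1, a change of 1.06 ± 0.23 (log2, SE; adjusted p = 0.0011). YRA1, an mRNA export factor that limits its own splicing, went from 16.7, 18.1 and 15.4 to 37.7, 38.9 and 37.2, a change of 1.18 ± 0.13 (log2, SE; adjusted p = 4.1e-06). DBP2, a helicase gene with an intron of 1002 bases that takes part in its own control, went from 2.58, 2.34 and 3.1 to 10.8, 10.2 and 13, a change of 2.09 ± 0.35 (log2, SE; adjusted p = 0.00018). SUS1, a subunit of SAGA and of the export complex TREX-2 with 2 introns counted together, reached 91.2, 88.8 and 93.9 from 34.4, 36.3 and 46.6, a change of 1.23 ± 0.15 (log2, SE; adjusted p = 1.2e-05). GCR1, the activator of glycolytic genes, had the smallest rise of the list, from 22.9, 22.8 and 24 to 28.4, 28.8 and 28.9, a change of 0.30 ± 0.12 (log2, SE; adjusted p = 0.039). That call was lost under edgeR (adjusted p = 0.061) and in 5 of the 6 fits that left out 1 library (0.088 to 0.096).

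The following counts by pathway stand beside a rise in 92% of all 250 introns and a median of 2.58, and none was tested against it. In the secretory list, 14 of 14 rose, with a median of 3.13. SAR1, the GTPase that starts COPII vesicle budding, went from 2.11, 1.41 and 0.762 to 23.2, 22 and 15.8, a change of 3.91 ± 0.35 (log2, SE; adjusted p = 1.1e-06). SEC14, a phosphatidylinositol transfer protein, and VPS29, a retromer subunit, changed by 3.67 and 3.8. In the cytoskeleton list, 8 of 9 rose. TUB1 and TUB3, the pair of alpha-tubulin genes, changed by 2.20 and 1.58, and GIM5, a prefoldin subunit, by 3.09. The exception was CIN2, a tubulin folding factor, with 0.29 and an adjusted p of 0.38.

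The 92% over all introns is also the background for the lists that follow. Of intron-carrying genes for RNA processing, 13 of 13 gained, with a median of 2.37. LSM7, a member of the Lsm ring that binds U6 in the tri-snRNP, went from 7.67, 7.24 and 5.31 to 57.5, 57.6 and 56.6, a change of 3.10 ± 0.19 (log2, SE; adjusted p = 9.8e-08). MUD1, a protein of the U1 snRNP, went from 6.73, 4.66 and 7.25 to 31.4, 26.3 and 38.2, a change of 2.37 ± 0.23 (log2, SE; adjusted p = 2e-06). In the ubiquitin list, 8 of 10 rose. RUB1, a ubiquitin-like modifier, changed by 2.85, while UBC4 and UBC5, a pair of related ubiquitin-conjugating enzymes, had 0.80 and 1.72 and did not pass, at adjusted p of 0.08 and 0.07 by limma. With the replicate number as a block both passed, at 0.012 and 0.039. Genes with 2 annotated introns gained in 10 of 10 cases, with a median of 2.76. VMA9, a subunit of the vacuolar proton pump, went from 5.15, 6.45 and 3.39 to 60.7, 62.4 and 57.3, a change of 3.63 ± 0.22 (log2, SE; adjusted p = 8.3e-08), and RPL7A by 4.13. RPL7A, like RPL7B, RPS22B and NOG2, has a small RNA gene in its intron on the same strand, whose reads cannot be told apart from those of the intron.

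The 20 introns that did not pass had changes of -0.28 to 1.72, and 10 of them lay in hosts under 200 normalised counts in both groups, where the intervals are wide. HAC1, the transcription factor of the unfolded protein response, is an abundant transcript with 48.3, 47.7 and 55.7 intron reads per 100 gene reads in galactose and 46, 44.7 and 52.9 at 8 h. Its change was -0.08 ± 0.20 (log2, SE; adjusted p = 0.7), with a 95% interval of -0.57 to 0.41, which lies under the smallest gain of any ribosomal protein intron. REC107, a meiotic gene whose splicing needs the meiosis-specific factor Mer1, had 16.8, 15.9 and 18.9 and 15.5, 14 and 19.3, a change of -0.088 ± 0.17 (log2, SE; adjusted p = 0.61) with an interval of -0.49 to 0.32. YJR112W-A had -0.026, with an interval of -0.71 to 0.66. YJR079W, YML133C and YHL050C all start with GCATGT, and their changes were -0.21, 0.19 and 0.25. YJR079W overlaps AIM24 over 808 bases on the opposite strand, and the strand setting of the counting is not given. YML133C and YHL050C are in repeated helicase genes of chromosome ends, whose reads may match several copies. YHL050C passed with the replicate block (adjusted p = 0.044). YBR219C and YOR318C, of unknown function, had -0.15 and -0.10. YBR219C had 308, 361 and 498 intron reads per 100 gene reads in galactose. It shares 309 bases with YBR220C on the same strand, where reads of both genes cannot be told apart. In the meiosis list, 1 of 5 tested introns rose, HOP2, a gene for homologous pairing, from 15, 22.4 and 11.8 to 67.7, 72.4 and 77.3, a change of 2.10 ± 0.27 (log2, SE; adjusted p = 2.2e-05). REC114 and AMA1 had 0.54 and 0.64, with too few reads for a narrow interval.

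**Figure D2:**
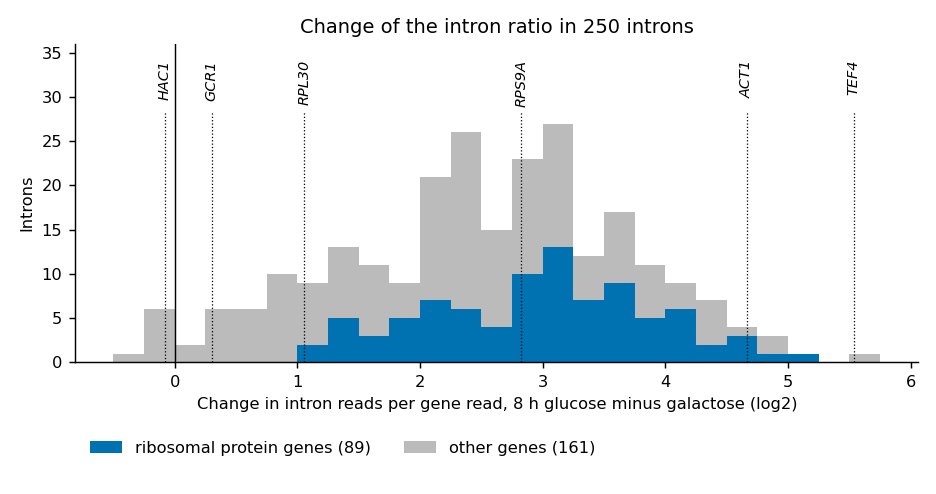
Number of introns by change in the log2 of intron reads over gene reads, 8 h glucose minus galactose, for 89 introns of ribosomal protein genes (blue) stacked with 161 of other genes (grey), with 6 introns marked. The whole ribosomal protein class lies above 1, and HAC1 lies at -0.08.

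The gain was set beside the letters of the intron, for hosts with 1 annotated intron. Introns that start GTATGT had a median gain of 2.77 over 179 introns, and 170 rose. Those with another start in GT had 2.33 over 53, and 49 rose. The 5 with no GT start had 0.19, and 1 rose. Introns with an exact TACTAAC on the strand of the gene had a median of 2.77 over 199, against 1.76 over 38 without one. In genes other than ribosomal protein genes, introns with both GTATGT and TACTAAC had 2.75 over 88, and those lacking one or both 1.69 over 62. In ribosomal protein genes the same medians were 3.06 and 2.96, over 62 and 25 introns. Of all 313 annotated introns of genes other than structural RNA genes, 65.5% start GTATGT and 74.1% hold TACTAAC. These medians are descriptions, and no test was made between the classes. Introns with a low percent in galactose gained more, with a Spearman correlation of -0.71 over 250 introns, and the galactose value enters both quantities.

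On the scale of the gene table, intron RNA itself also rose. Intron levels, as intron reads divided by the gene table's size factor, rose in 213 of 254 introns (83.9%) and fell in 5 (1.97%), 85.8% in all. The deposited intron tables were scaled on intron reads alone, a scale that divides out a rise common to all introns, and on it 73 of these 254 rose and 82 fell. The intron of RPS9A, for a 40S protein, went from 381 ± 86.4 to 6469 ± 459.5 normalised counts (mean ± SD, n = 3). The 5 that fell were in QCR9, MRK1, YDR381C-A, YJR079W and CIN2, and the gene-level RNA of all 5 fell too, by 1.27 to 2.62 on the log2 scale, a call lost for YJR079W in 4 of the 6 fits that left out 1 library (adjusted p of 0.056 to 0.073). In QCR9 and MRK1 the ratio of intron to gene reads rose while the intron level fell. The overlap of YJR079W with AIM24 limits its values here too.

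The share of genes that fell was larger among intron-carrying genes than among the rest, a difference given as counts with no test. Over all genes with a read, 884 rose (13.7% of 6447) and 976 fell (15.1%). Without 8 h replicate 1 or 2 the number that rose was 566 and 555. By the fold changes and adjusted p of the authors' deposited table, 1029 genes rose and 1142 fell. Of the 272 intron-carrying genes, 29 rose and 102 fell (37.5%), with a median of -0.39. Of the 6175 without an annotated intron, 855 rose and 874 fell (14.2%), with a median of 0.019. Intron-carrying genes are shorter, at a median of 567 exon bases against 1224. Among genes under 1000 exon bases, 42.2% of 206 with an intron fell and 17.4% of 2175 without one. Among the 230 introns whose ratio rose, the host fell in 91 and rose in 23, and the size of the gain had a Spearman correlation of -0.07 with the change of the host, over 250 introns.

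**Figure D3:**
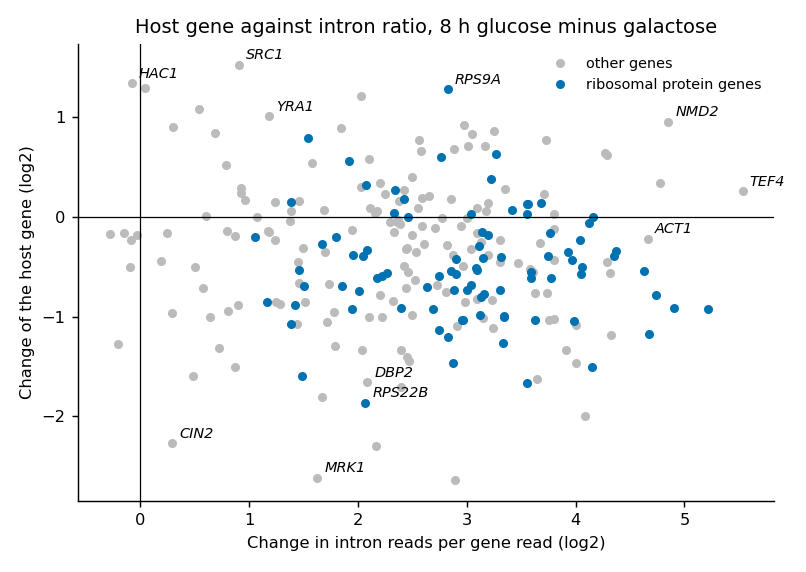
Change of the host gene (log2, vertical) against change in the ratio of intron to gene reads (log2, horizontal) for 250 introns, 8 h glucose minus galactose, ribosomal protein genes in blue and other genes in grey. Points spread to the right of 0 at all heights, with TEF4 farthest right at 5.53 and MRK1 lowest of the named genes at -2.62.

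Of the proteasome subunits, a list chosen after values were seen, 32 of 33 rose, beside 13.7% of all genes, with a median of 1.01. RPN1, the largest rise, is a scaffold of the 19S base and went from 10469, 9933 and 11853 to 35822, 36206 and 37539.8 normalised counts, a change of 1.77 ± 0.21 (log2, SE; adjusted p = 0.00025). PRE2, a catalytic subunit of the 20S core, went from 6965, 7379 and 7545 to 15885, 16977 and 15832, a change of 1.15 ± 0.14 (log2, SE; adjusted p = 0.00024). The 1 that did not rise was PRE3, another catalytic subunit and the only one of the 33 with an intron. PRE3 had 3369, 4622 and 3706 in galactose and 3947, 4136 and 3428 at 8 h, a change of -0.015 ± 0.18 (log2, SE; adjusted p = 0.97), so its groups overlapped. Its intron percent went from 4.24, 2.29 and 2.96 to 27.5, 22.9 and 23.6, a change in ratio of 3.0 ± 0.28 (log2, SE; adjusted p = 1.3e-06). RPN4, the activator of proteasome genes, rose by 0.60 (adjusted p = 0.028), a call lost in 5 of the 6 fits that left out 1 library (0.073 to 0.12).

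In the actin and tubulin list, 5 of the 10 intron-carrying genes fell and 1 rose, while of the 24 without an intron 0 fell and 2 rose. Over all intron-carrying genes 37.5% fell and 10.7% rose, and over all genes without an intron 14.2% and 13.8%. PFY1, profilin, went from 8897, 9668 and 8430.1 to 3509.6, 3113 and 3263, a change of -1.45 ± 0.21 (log2, SE; adjusted p = 0.00076). COF1, cofilin, went from 5628, 8502 and 5692 to 2679, 2664 and 2032, a change of -1.41 ± 0.28 (log2, SE; adjusted p = 0.0043). CIN2 fell by 2.27, and TUB1 and GIM5 fell as well. TUB3 rose by 0.54. BNI1, a formin with no intron that nucleates actin cables, rose by 1.56 and is a long gene. Among ribosome assembly factors, 2 of 80 fell, DBP2 and NOG2, and these are the 2 that carry an intron. NOG2, a GTPase of 60S export, went from 8175, 7831 and 6758 to 3328, 3550.2 and 3574, a change of -1.12 ± 0.13 (log2, SE; adjusted p = 0.00019). The other 78 had a median of 0.12, with 2 rises, among them UTP20.

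Of ribosomal protein genes with an intron, 38 of 89 fell (42.7%) and 4 rose, with a median of -0.54. Over all intron-carrying genes 37.5% fell. Of those without an intron, 8 of 48 fell (16.7%) and 0 rose, with a median of -0.34. This share of falls is near the 15.1% over all genes. RPS22B had the largest fall of the first class, from 8804, 9373 and 11045 to 2801, 2711 and 2471, a change of -1.87 ± 0.16 (log2, SE; adjusted p = 4.5e-05). RPL7B and RPL2A fell by 1.60 and 1.66. RPS9A rose from 7196, 6702 and 5856 to 15785, 15933 and 16163, a change of 1.28 ± 0.12 (log2, SE; adjusted p = 8.2e-05), and its intron percent rose from 6.24, 6.12 and 4.85 to 40, 38.4 and 43.2. RPL8A, with no annotated intron, had the largest fall of any ribosomal protein gene, from 11069.7, 13132 and 11205 to 1869, 1889.6 and 1774, a change of -2.67 ± 0.25 (log2, SE; adjusted p = 7.6e-05). Of 29 translation factor genes, 0 passed in either direction by limma, and TEF4 itself had 0.26.

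All 12 genes of the GAL list fell, beside 15.1% of all genes. GAL10, the epimerase, fell most, from 201597, 238713 and 247876 to 69.2, 72.5 and 107, a change of -11.44 ± 0.24 (log2, SE; adjusted p = 1.4e-09). GAL2, the galactose permease, and GAL7, the uridyltransferase, changed by -10.36 and -10.23, and GAL3, the galactose sensor, by -5.68. The activator Gal4 binds CGGNNNNNNNNNNNCCG, which reads the same on both strands. Some of the promoters that carry it are shown, among them that of GAL1, which drives DIB1 in this strain. The 3 fixed bases at each end are in capitals.
GAL1: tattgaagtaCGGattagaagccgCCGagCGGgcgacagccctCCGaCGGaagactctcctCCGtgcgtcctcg
GAL7: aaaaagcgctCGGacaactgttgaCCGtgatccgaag
GAL3: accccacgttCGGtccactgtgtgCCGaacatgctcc
YEL057C: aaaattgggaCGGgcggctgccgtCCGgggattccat
The GAL1 stretch (chrII:278558-278631, R64) holds 3 of these sites and also lies before GAL10, and the others are chrII:275693-275729 for GAL7, chrIV:463136-463172 for GAL3 and chrV:46109-46145 for YEL057C, each printed on the strand of its gene. In the 500 bases before the coding start, 10 of the 12 GAL list genes hold the motif, against 2.98% of 5842 genes. YEL057C, of unknown function, went from 3868, 4614 and 5244 to 41.2, 40.8 and 61, a change of -6.57 ± 0.25 (log2, SE; adjusted p = 2.5e-07). Of the 948 genes with such a window that fell, 4.96% hold the motif, and of the 856 that rose 2.45%. A match is a description of the letters and no measure of binding.

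Glucose transporter genes moved both ways. In the hexose list, 8 of 24 rose (33.3%) and 5 fell (20.8%), beside 13.7% and 15.1% over all genes. HXT1, the low-affinity glucose transporter, went from 9.04, 9.43 and 2.68 to 2849, 2964 and 2009 normalised counts, a change of 8.46 ± 0.37 (log2, SE; adjusted p = 7.2e-07), the largest rise among genes of at least 200 normalised counts in either group with groups that did not overlap. HXT3, another low-affinity transporter, changed by 5.92, and HXT2 and HXT4 by 4.51 and 4.23. MIG2, a repressor induced by glucose, went from 172, 138 and 68.3 to 4841, 4351 and 2350.4, a change of 4.96 ± 0.34 (log2, SE; adjusted p = 1.3e-05), and STD1, a regulator in glucose sensing, changed by 3.59. HXT3, HXT4 and MIG2 were lowest at 8 h in replicate 3. HXT6 and HXK1, which serve at low glucose or are repressed by it, were among those that fell, at -2.65 and -1.65. Other large rises were in ARI1, an NADPH-dependent aldehyde reductase, at 3.89, PHM7 at 3.26, YBR056W-A at 3.47 and SPS100, a spore wall gene, at 3.26. SPS100 overlaps the non-coding gene YNCH0011W on the opposite strand, and the strand setting of the counting is not given.

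Of respiratory chain and ATP synthase genes, 35 of 38 fell and 0 rose, with a median of -1.35. Over all genes 15.1% fell and 13.7% rose. CYC1, cytochrome c, went from 4105, 5733 and 5176 to 571, 569 and 558, a change of -3.13 ± 0.21 (log2, SE; adjusted p = 8.6e-06). Of tricarboxylic acid cycle genes, 9 of 11 fell, among them MDH1, mitochondrial malate dehydrogenase, at -1.77 and LSC2, a succinyl-CoA ligase subunit, at -1.76. The exceptions were IDH1 and IDH2, the subunits of isocitrate dehydrogenase, at -0.17 and 0.0018. Of 28 genes for gluconeogenesis and other carbon sources, 18 fell and 0 rose, among them JEN1, the lactate transporter, at -4.37 and FBP1, fructose-1,6-bisphosphatase, at -3.18. Of 19 glycolytic and fermentation genes, 1 fell, GPD2, a glycerol-3-phosphate dehydrogenase, at -1.02, and 0 rose.

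In the methionine and sulfate list, 17 of 25 fell and 0 rose, beside falls in 15.1% and rises in 13.7% of all genes. MET6, methionine synthase, went from 15859.5, 15501 and 14456 to 2605, 1881 and 6288, a change of -2.28 ± 0.39 (log2, SE; adjusted p = 0.0019). Of genes under Gcn4, the activator of amino acid synthesis, 15 of 36 fell and 0 rose, with ARG1, of arginine synthesis, from 4307, 3389 and 4864 to 537, 459 and 1261, a change of -2.61 ± 0.34 (log2, SE; adjusted p = 0.00044). In MET6 and ARG1, replicate 3 was the highest of the 8 h libraries. The anaerobic cell wall gene TIR4 changed by -2.92, and OPT2, an oligopeptide transporter, by -5.07. FAR1, an inhibitor of the G1 cyclin kinase needed for pheromone arrest, went from 21037, 20656 and 17345 to 2782, 2889 and 3662, a change of -2.67 ± 0.14 (log2, SE; adjusted p = 1.9e-06).

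The HAC1 gene went from 9314, 12720.2 and 16728 to 29348, 34115 and 32161 normalised counts, a change of 1.34 ± 0.33 (log2, SE; adjusted p = 0.013). This call was lost without galactose replicate 1 or 2 or 8 h replicate 2 (adjusted p of 0.061, 0.051 and 0.052). The list counts that follow stand beside 13.7% of all genes that rose and 15.1% that fell. Of 11 secretory chaperones under Hac1, a list chosen after values were seen, 8 rose and 0 fell, with KAR2, the Hsp70 of the endoplasmic reticulum, from 9354, 10899.6 and 11370.0 to 23801, 23576 and 18640.4, a change of 1.06 ± 0.16 (log2, SE; adjusted p = 0.001). Of 30 heat shock and chaperone genes, 6 rose and 0 fell. HSP42 and HSP26, small heat shock proteins, changed by 2.20 and 1.96, and SSA2, a cytosolic Hsp70, by 1.20. In the general stress list, 12 of 34 rose (35.3%) and 5 fell (14.7%, near the share over all genes). TSL1, of trehalose synthesis, was at 2.06 and GAC1, of glycogen synthesis, at -2.44. In the cell wall list, 11 of 34 rose (32.4%) and 5 fell (14.7%, again near the share over all genes). GSC2, a glucan synthase induced under stress, went from 6415, 6282 and 6148 to 19854, 20866 and 18913, a change of 1.66 ± 0.10 (log2, SE; adjusted p = 4e-06). AHP1, a peroxiredoxin, changed by 2.07, and OYE3, an NADPH oxidoreductase, by -3.51. In the iron list, 10 of 23 rose (43.5%) and 3 fell (13.0%, also near the share over all genes). FET3, the iron-transporting oxidase, was at 0.98 and FIT3, a cell wall mannoprotein for siderophore retention, at -2.14. Of the other lists, again beside 13.7% and 15.1% over all genes, the oxidative stress genes had 3 rises and 4 falls of 24, the phosphate genes 2 and 3 of 16, the cell cycle genes 5 and 4 of 37, the pheromone response genes 5 and 4 of 20, the meiosis genes 3 and 7 of 18, and the subunits and factors of RNA polymerase I and III 4 and 0 of 23.

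**Figure D4:**
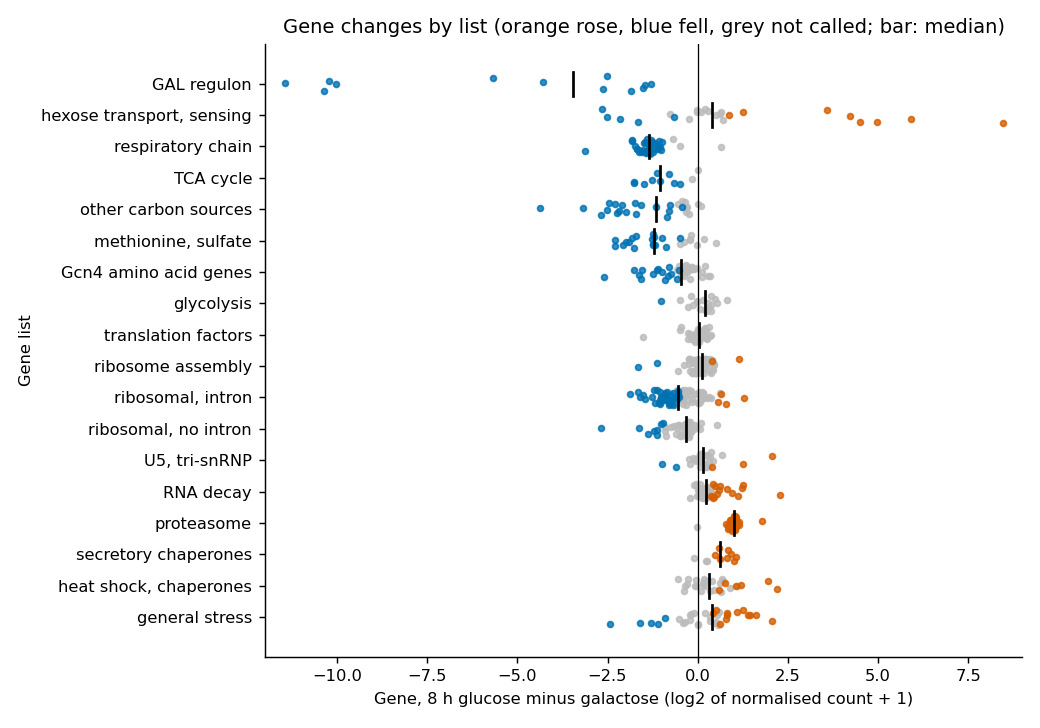
Change of each gene (log2 of normalised count + 1, 8 h glucose minus galactose) in 18 lists, with genes that rose in orange, genes that fell in blue, genes not called in grey and a bar at each list's median. The proteasome genes form a narrow band around 1.01 with PRE3 alone near 0, and the GAL list reaches -11.44.

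Counts for the splicing machinery stand beside 13.7% of all genes that rose and 15.1% that fell, and were not tested against them. Of 29 genes for U5 and tri-snRNP proteins, 3 rose and 2 fell. The risers were PRP8, the core scaffold of the spliceosome, from 2882, 2501 and 2791 to 11436, 12223 and 10318, a change of 2.05 ± 0.21 (log2, SE; adjusted p = 0.00012), BRR2, the helicase that unwinds U4 from U6, at 1.26, and SNU114, the U5 GTPase, at 0.39. The fallers were LSM2, which carries an intron, at -1.0 and PRP31, a U4/U6 protein, at -0.61. The call of PRP31 was lost in 3 of the 6 fits that left out 1 library (adjusted p of 0.054 to 0.057), and that of SNU114 in 5 (0.084 to 0.17). Of 24 U1 and U2 genes 3 rose, RSE1 most, at 1.26, of 27 Prp19 complex and step factor genes 1 rose, and of 8 helicase genes 2 rose, BRR2 and PRP22. Of 39 RNA decay and surveillance genes 14 rose and 0 fell, with CDC39, the Not1 scaffold of the deadenylase complex, from 4733, 4355 and 4984 to 22018, 24154 and 22373, a change of 2.28 ± 0.13 (log2, SE; adjusted p = 4e-06), and NRD1, which ends non-coding transcription, at 1.25.

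Gene length moved with these rises. Of 196 genes of at least 4000 exon bases, 133 rose and 6 fell, with a median of 0.62. Over all 6447 genes 13.7% rose and 15.1% fell, with a median of 0.0083. PRP8, BRR2, RSE1, CDC39, BNI1, UTP20 and GSC2 all belong to the 196 long genes. Relative to the 9 Dib1 libraries, these genes deviated by 0.36 to 0.42 in the 3 libraries of 8 h and by -0.36 to -0.25 in galactose, so the groups did not overlap. ECM29, a proteasome-binding protein, had the largest rise of the long genes, from 1249.6, 1403 and 1163 to 6819.8, 7623 and 6629.6, a change of 2.47 ± 0.11 (log2, SE; adjusted p = 7.2e-07), and TRA1, the activator-binding subunit of SAGA and NuA4, changed by 2.31. With each library's trend over length removed, 50 of the 196 rose and 22 fell, beside 916 rises and 843 falls over 5843 genes. PRP8 then kept 1.11 and CDC39 1.46, and UTP20 and SNU114 no longer passed, at 0.17 and 0.15. The proteasome count stayed at 32 of 33, and of intron-carrying genes 82 of the 272 fell. The part of RNA quality or of coverage along the gene in the length trend was not tested.

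**Figure D5:**
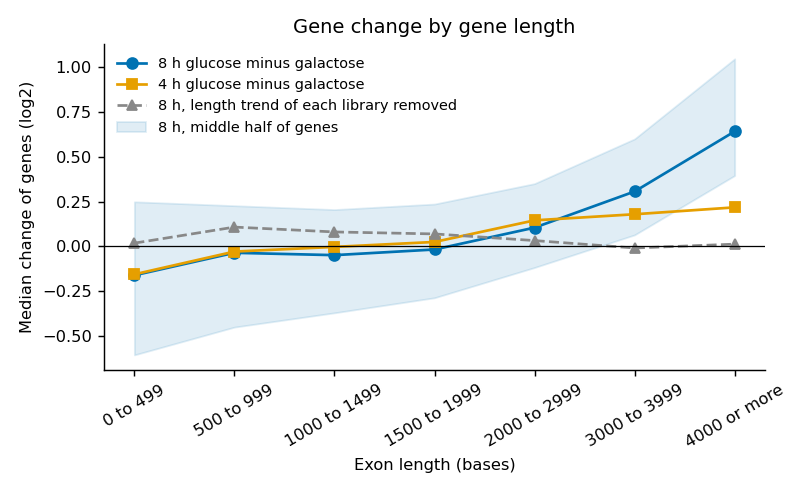
Median change of genes (log2) in 7 bins of exon length, for 8 h minus galactose (blue circles, shading from the lower to the upper quartile), 4 h minus galactose (orange squares) and 8 h with each library's length trend removed (grey triangles). Over genes with a mean of at least 20 reads, the 8 h median is -0.16 under 500 bases and 0.64 at 4000 bases or more.

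The rise in intron reads was larger at 8 h than at 4 h of glucose. The libraries of 4 h and 8 h share the galactose control, so they were compared directly. The intron ratio was higher at 8 h than at 4 h in 177 of 250 introns (70.8%) and lower in 0, with a median difference of 0.87 (edgeR was not run here, and 0 were lower at an unadjusted 0.05). Without replicate 2 the count was 108. SAC6 had 0.775, 1.9 and 1.5 intron reads per 100 gene reads at 4 h and ACT1 11.1, 6.41 and 6.92, between their galactose and 8 h values. Of ribosomal protein introns, 78 of 89 were higher at 8 h. For GCR1, SUS1 and RPL30 the difference between 4 h and 8 h did not pass the test (adjusted p of 0.99, 0.15 and 0.42 by limma).

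Among genes, 556 were higher at 8 h than at 4 h (8.62%) and 373 lower (5.79%). This count rests on all replicates, with 277 without replicate 1, 9 without replicate 2 and 290 without replicate 3, and with the replicate block 750 were higher and 608 lower. Of the proteasome genes 22 of 33 were higher at 8 h, and of long genes 105 of 196. Of ribosomal protein genes with an intron 31 of 89 were lower at 8 h, and of those without 8 of 48. Of the iron list 14 of 23 were higher at 8 h, of the general stress list 16 of 34, and of the GAL list 0 of 12.

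The same shift to glucose in the strain with SNU114 under the GAL1 promoter was used to ask where the Dib1 strain differs, as a difference of the 2 changes tested in one fit of all 18 libraries. The Snu114 strain expresses alpha-cell genes and has LYS2 near 0 (0 to 2.84 normalised counts), so mating type and this allele differ between the strains along with the depleted protein and cannot be told apart from it. The gain in intron ratio was larger in the Dib1 strain in 151 of 250 introns (60.4%) and smaller in 0, with medians of 2.58 and 1.57 in the 2 strains (at an unadjusted 0.05, 0 were smaller, and edgeR was not run here). Without replicate 1 the count was 81, and without replicate 2 it was 51. Of ribosomal protein introns 85 of 89 gained more, and of other introns 66 of 161. RPL22A differed by 2.42 (adjusted p = 1.6e-05) and RPS14B by 1.53 (adjusted p = 1.6e-05), both by limma. SUS1, HAC1, REC107 and GCR1 showed no detectable difference, at 0.035, 0.041, -0.025 and 0.059.

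Among genes, 201 changed more upward in the Dib1 strain (3.13% of 6418) and 204 more downward (3.18%), 6.31% in all. With the replicate block the numbers were 399 and 344, and without replicate 1 or 2 they were 34 and 10 in all. Of the phosphate list, 11 of 16 genes changed more downward in the Dib1 strain, with PHO84, the phosphate transporter, at -0.11 here and a difference of -4.94. The non-coding gene YNCM0001W overlaps PHO84 over 1764 bases on the opposite strand, and the strand setting of the counting is not given in the sources used here. Of long genes 51 of 196 changed more upward. In the GAL list 0 of 12 and in the respiratory list 1 of 38 differed between the strains.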

How the data were processed

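RNA was purified with the RiboPure kit, treated with DNase and made into TruSeq Stranded mRNA libraries for paired-end sequencing, per the labels' protocols. Trimmomatic, STAR, HTSeq and DESeq2 with sacCer3 are named in the submitters' processing notes, and versions, parameters and the strand setting of the counting are not given in the sources used here. The authors deposited normalised counts for genes and for intron regions of each strain, per the file headers, which are a signal scaled by 1 size factor per library. The authors' deposited table also holds log2 fold changes and adjusted p-values from their own comparisons, used here for counts of calls only. Every value came out as a whole number of reads times a step per library (100% of values, tolerance 0.001), and these whole reads were recovered. Design and tests assumed either unit, and the fit for normalised values was used. Gene symbols, introns and sequences are from RefSeq R64, in which 281 of 284 intron hosts were found, and the gene models hold no untranslated regions.

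Changes were fitted with limma 3.58.1 (R 4.3.3) on log2(normalised count + 1) over the 9 libraries of the Dib1 strain, with intensity trend and Benjamini-Hochberg adjustment at 0.05. A fold change on this scale understates the change of low genes. Intron ratios are log2((intron reads + 0.5)/(gene reads + 0.5)), in hosts with a mean of at least 20 gene and 5 intron reads. Strain differences were tested in one fit of 18 libraries, each change taken within its strain's table, since the tables were normalised separately. Adjusted p-values in the text are from limma unless another tool is named. Of 6596 listed genes, 6447 had a read. Depth was 17142711 to 58615022 gene reads and 96655 to 1536697 intron reads per library of this comparison, the fewest intron reads being in galactose. Reads carry no molecular identifiers, so counting error alone understates the spread. Same-numbered 8 h and galactose libraries deviated together (r of 0.345, 0.457 and 0.588 over 5528 genes). Replicates 1 and 2 also did so across numbers (0.270 and 0.309), while replicate 3 with another number had r of -0.551 to -0.380. The number thus mainly sets replicate 3 apart, and a pairing of replicates 1 and 2 is less clear. A fit with the number as a block was an alternative. Other alternatives were edgeR 4.0.16, DESeq2 1.42.0, other scalings, pseudocounts and filters, removal of each library's length trend, and leaving out each replicate. On simulated counts with known changes, 11.9% of 1.5-fold, 70.2% of 2-fold and 98.5% of 4-fold changed genes were recovered for the comparison of 8 h with galactose over 6447 genes, with 5 false among 125 calls. On the recovered reads edgeR called 881 genes higher and 1015 lower of 5841, and DESeq2 1028 and 1139 of 6447. For the 250 intron ratios, 75% of 2-fold and 100% of 4-fold changes were recovered. The simulations gave 125 gene calls and 56 ratio calls, against 1860 and 230 in the data. With fewer changed members the adjustment is stricter, so the recovered shares do not carry over to the data.

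The members and lists were chosen with earlier results of these data known, and the proteasome and secretory chaperone lists after values were seen. Named genes are DIB1 and GAL1, the 10 largest changes each way among genes of at least 200 normalised counts whose groups do not overlap, and up to 3 called members each way and 2 others per list, with a like rule for introns. The genes RPN4, HXK1, TUB1, GIM5, QCR9, YDR381C-A and YJR079W, the introns of PRE3, CIN2, COF1, LSM2, MRK1, NOG2, PFY1, QCR9, RPL2A, RPL7B, RPS22B, UBC4, UBC5, YDR381C-A, YHL050C, YJR079W and YML133C, and the gene levels of hosts named for their introns were named after their values were seen.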

Additional observations from a re-analysis of the deposited data

Results flagged for a closer look

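The results below stand out because the 8 h change in the Dib1 strain differed from that in the strain with SNU114 under the GAL1 promoter, by limma in one fit of 18 libraries with Benjamini-Hochberg adjustment at 0.05. In all, 405 genes and 151 intron ratios differed, and these counts fell to 10 genes and 51 ratios without replicate 2. Mating-type genes, LYS2 and the depleted protein differ between the strains and cannot be told apart. The targeted genes differed by construction, with -8.59 for DIB1 and 7.41 for SNU114 (Dib1 strain minus Snu114 strain, log2).

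Of the genes named in the text, 28 had an intron ratio that differed, and all 28 gained more in the Dib1 strain. The differences in log2 ratio were RPL22A (2.42), RPL21A (2.33), SEC14 (1.81), COF1 (1.73), RPS14A (1.70), RPL2A (1.65), RPS4B (1.63), SAR1 (1.58), NMD2 (1.57), RPL19B (1.56), RPL22B (1.56) and RPL7A (1.55). Smaller ones were ACT1 (1.53), RPS14B (1.53), TUB1 (1.52), PFY1 (1.41), RPS9A (1.41), VMA9 (1.32), RPL7B (1.22), RPL19A (1.18), NOG2 (1.08), TUB3 (0.91), RPS22B (0.89), LSM7 (0.86), PRE3 (0.85), LSM2 (0.83), YRA1 (0.66) and RUB1 (0.44).

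Of the genes named in the text, those that changed more upward in the Dib1 strain and are at least 4000 bases long were GSC2 (1.32), CDC39 (1.21), ECM29 (1.13), PRP8 (1.07), BNI1 (0.96), RSE1 (0.64) and BRR2 (0.62), with the difference in log2 in parentheses. Shorter ones were SPS100 (3.40), PHM7 (2.13), MIG2 (1.78), YRA1 (1.26), NRD1 (1.09), RPN1 (0.94) and GCR1 (0.87). The median change of the 196 genes of at least 4000 bases was 0.62 in the Dib1 strain and 0.27 in the Snu114 strain, and the part of this trend in the differences was not tested.

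Genes named in the text that changed more downward in the Dib1 strain were PHO84 (-4.94), OPT2 (-3.06), RPL8A (-2.11), FIT3 (-2.01), JEN1 (-1.90), RPL7B (-1.64), YEL057C (-1.48), RPS22B (-1.34), CYC1 (-1.24), PFY1 (-1.0) and NOG2 (-0.80). PHO84 had 8744, 20457 and 8806 normalised counts in galactose and 9108, 9838 and 13994 at 8 h in the Dib1 strain, so its own groups overlapped, and the difference comes with means of 502 and 13106 in the Snu114 strain's table. PFY1, NOG2, RPL7B and RPS22B carry introns, and in each the gene changed more downward and the intron ratio more upward in the Dib1 strain.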

How the results depend on the processing

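The rise of intron ratios kept its direction in every setting, with 210 to 234 introns higher, beside 0 lower except for 4 lower when intron reads were divided by the library's total gene reads. On that scale, which keeps the change of the host gene, the signs turned for HAC1 (1.26), CIN2 (-1.89), MRK1 (-0.99), QCR9 (-0.63), RPL7B (-0.12) and YDR381C-A (-1.10), the log2 values being on the total scale. Intron levels on the size factors of the deposited intron tables gave 73 higher and 82 lower. Genes that rose numbered 884, or 555 to 741 with 1 library left out, 1235 with 6 libraries in the fit and 916 of 5843 with the length trend removed, and those that fell numbered 976, 655 to 804, 1322 and 843. Removing the length trend moved the median of all genes to 0.064 and turned the sign of the gene AXL1 (-0.041). The share of intron reads was 4.82 to 4.94 times as large at 8 h with 1 library left out. With 1 replicate number left out of every group, 9 to 290 genes and 108 to 180 intron ratios changed from 4 h to 8 h, and 10 to 360 genes and 51 to 141 intron ratios differed between the strains. Each such fit has fewer samples, and the cause of these losses was otherwise not tested. With the replicate block, 1109 genes rose and 1191 fell at 8 h, 743 genes differed between the strains in place of 405, and the block ended no call of a named gene or intron. Of 164 named genes past the threshold 133 stayed so with the same sign in every setting, as did 36 of 44 named intron ratios. Changes under 2-fold may be missed with 3 libraries a group. How often cannot be read from the simulation, which held far fewer changed genes than the data. Hosts with few intron reads in galactose limit the smallest ratios.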
